A study of Mus musculus with 16 samples.

Results

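The insulin-like growth factor (IGF) axis was examined in cultured mouse mammary fibroblasts by the rows of the expression table whose symbol is IGF1, IGF2, IGF1R, IGF2R, IGFBP2, IGFBP3, IGFBP4, IGFBP5, IGFBP6 or IGFBP7. All 10 symbols were found, among 18132 genes in all. The fibroblasts came from the inguinal mammary glands of female 129S6 mice aged 8 to 10 weeks, either MEKK1+/+ or MEKK1-/-, where MEKK1 is a kinase encoded by MAP3K1, and were grown in DMEM with 10% serum. They were left in that growth medium (CTL, untreated) or were given conditioned medium, the same medium harvested from MDA-MB-231, an established human breast cancer cell line, and RNA was taken after 8 h. The 4 groups (genotype by treatment) hold 4 cultures each, every culture with its own Illumina Mouse 8 array (16 arrays), from 3 mice per genotype. Which mouse gave which culture is not stated in the sources used here, so p-values measure the spread between cultures. No label restricts the MEKK1 deficiency to a cell type, and the fibroblasts were what remained of digested glands after a fat layer and an epithelial pellet were removed, with no sort.

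IGF1 and IGF2 are secreted growth factors that signal for survival and growth through the receptor tyrosine kinase encoded by IGF1R, whereas the IGF2R product binds IGF2 and takes it into the cell for degradation. Secreted IGF-binding proteins hold most IGF outside the cell, and each can restrain or prolong the action of its ligand. In the mammary gland, stromal cells are a known source of IGFs, and IGFBP5 is known for its association with involution after lactation.

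The deposited intensities were put on a log2 scale and quantile normalized, so that every array has the same distribution, and all log2 values below are on that scale. As deposited, the median gene moved by -0.28 (log2) with conditioned medium in MEKK1+/+ cells and by -0.02 in cells labelled MEKK1-/-, a shift that the normalization removes. A background level was set on each array by the 99th percentile of 1075 olfactory receptor genes, and ran from 7.20 to 7.34. MAP3K1 had means of 8.24 untreated and 8.07 with conditioned medium on arrays labelled MEKK1-/-, no lower than on MEKK1+/+ arrays (7.71 and 7.74), so that genotype is here a label the targeted gene does not bear out, and the part of the transcript its probe reads is not given in the sources used here. Of 14 fibroblast markers, 12 were above the background level on all 16 arrays. The 2 arrays labelled MEKK1-/- and numbered 1 stood apart: the summed intensity of 11 epithelial markers was 11824 on the untreated one and 10707 on the one with conditioned medium, against 1434 to 2121 on the other 14 arrays. The IGFBP5 differences and the counts of called IGF axis and pathway genes are given with and without them. Most other values are given with them only.

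**Figure D1:**
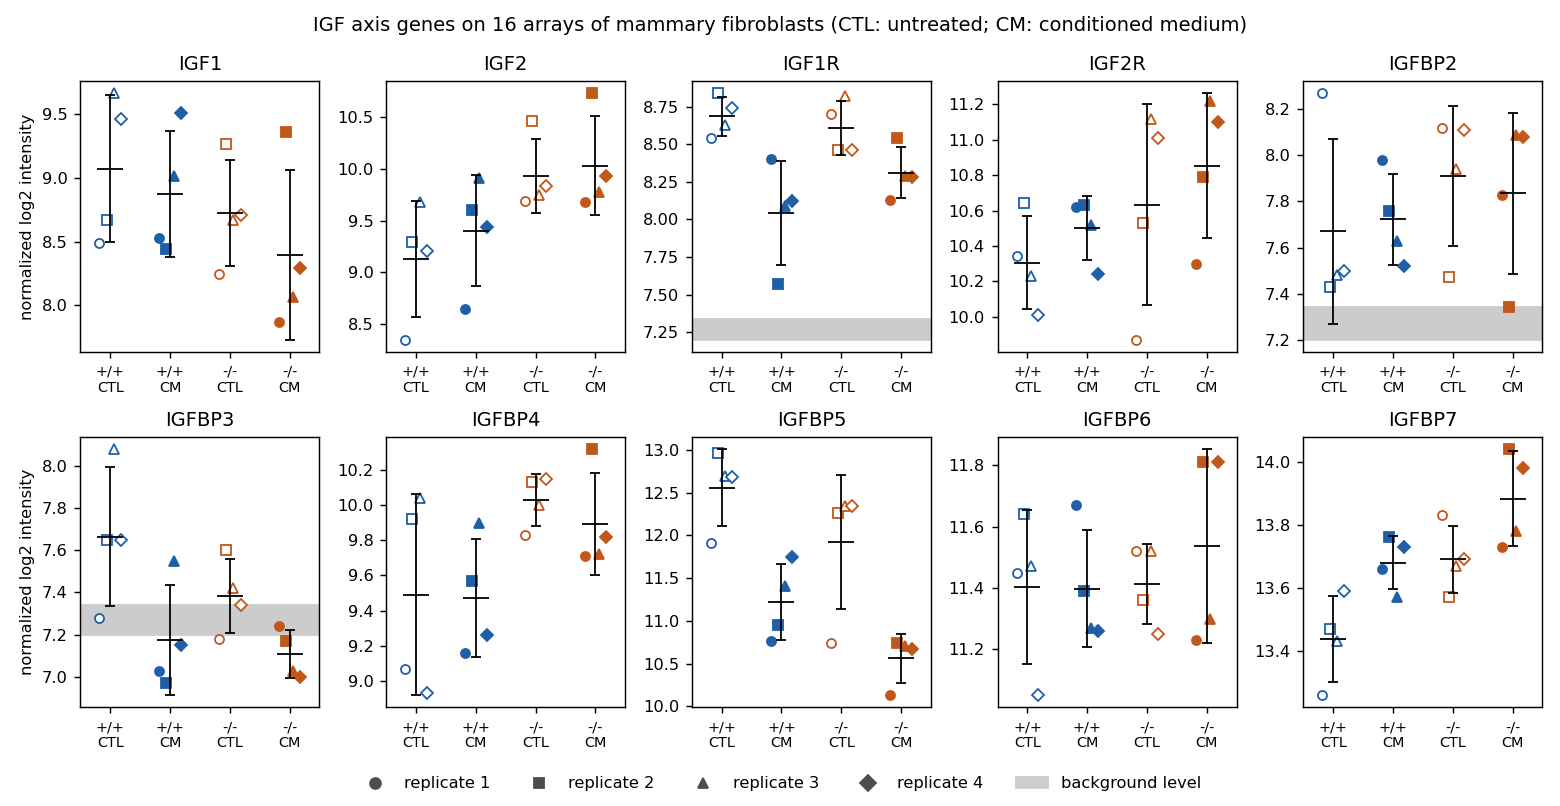
Normalized log2 intensity (y axis, a scale of its own in each panel) of the 10 IGF axis genes in the 4 groups of 4 arrays, with open symbols for untreated and filled symbols for conditioned medium; the symbol shape gives the replicate number, the horizontal bars are group means, the whiskers are 1 SD, and the grey band spans the background level of the 16 arrays where a panel reaches near it. IGFBP5 is lower with conditioned medium in both genotypes, and IGFBP3 is at or below the level of its own array on 8 of the 16 arrays.

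Of the 10 genes, 9 were above the background level on every array, and IGFBP3 was above it on 8 of 16. For IGFBP2 the margin was small, since its lowest value, 7.34, was above the level of its own array but within the range of levels over all arrays. Intensities of different probes were not compared with each other, and so no order of abundance among the 10 genes is given.

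With conditioned medium, IGFBP5 fell 2.53-fold in MEKK1+/+ cells and 2.57-fold in cells labelled MEKK1-/-, and IGF1R, the signalling receptor, fell 1.56-fold in MEKK1+/+ cells. Averaged over the genotypes, IGFBP5 and IGF1R fell, IGFBP7 rose by 1.16-fold, and IGFBP3 was called lower from values near background. Both ligands, IGF2R, IGFBP2, IGFBP4 and IGFBP6 did not pass the test in any comparison. At an adjusted p under 0.05 (limma, Benjamini-Hochberg, all 18132 genes), 2 of the 10 genes were called in MEKK1+/+ cells, where 5.01% of all genes were called, and 1 of 10 in cells labelled MEKK1-/-, against 4.69% of all genes. In the average over genotypes 4 of 10 were called (3 lower, 1 higher), where 12.5% of all genes were called (1094 higher, 1168 lower). A fit of only the 8797 genes above the background level on at least 4 arrays called larger shares. They were 11.8% in MEKK1+/+ cells, 11.1% in cells labelled MEKK1-/- and 27.7% on average. The median change of the 10 genes was -0.01 in MEKK1+/+ cells and -0.10 in cells labelled MEKK1-/- (log2), with 6 of 10 below 0 in each, against a median of 0.00 over all genes in both.

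**Figure D2:**
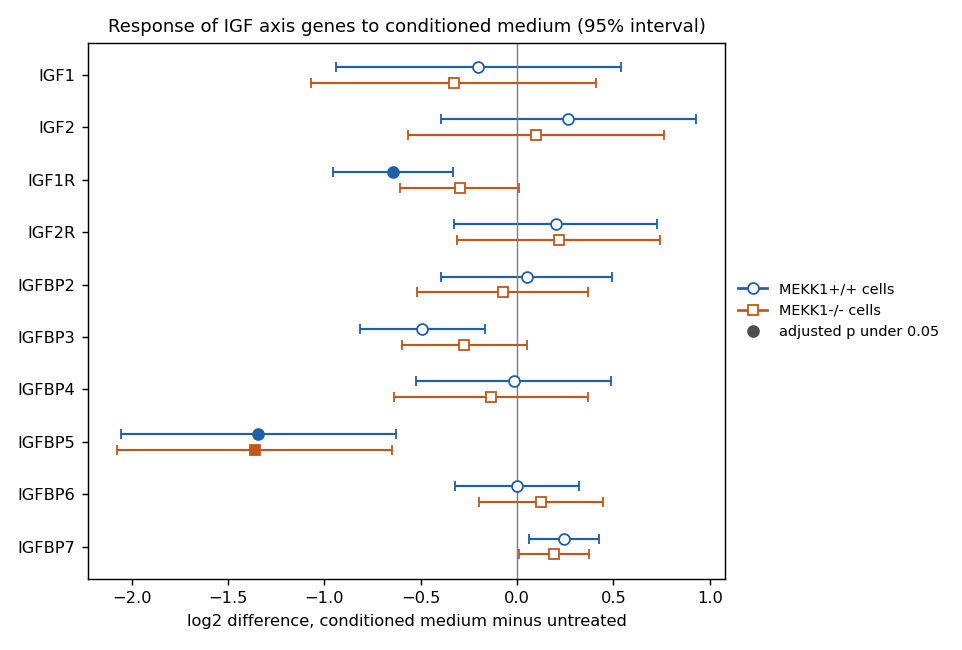
Log2 difference of conditioned medium from untreated (x axis) for each of the 10 genes, with 95% intervals from limma over all 16 arrays; circles are MEKK1+/+ cells, squares are cells labelled MEKK1-/-, and filled symbols have an adjusted p under 0.05. The filled symbols are IGF1R in MEKK1+/+ cells and IGFBP5 in both genotypes, and the 2 intervals of IGFBP5 cover nearly the same range.

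For the 4 genes that were called, the 250 bases before the annotated start were read from RefSeq (build GRCm38.p6), to place the proximal promoters of genes that moved in the same 8 h side by side. The coordinates are chr1:72874866-72875115 (minus strand) for IGFBP5, chr7:67952007-67952256 (plus strand) for IGF1R, chr11:7213924-7214173 (minus strand) for IGFBP3 and chr5:77408046-77408295 (minus strand) for IGFBP7. Each is written 5′ to 3′ and ends at the base before the start, and capitals mark matches, on either strand, to the TATA box letters TATAAA, the CAAT box letters CCAAT, the GC box core GGGCGG, the AP-1 core TGANTCA or the kappaB motif.
IGFBP5: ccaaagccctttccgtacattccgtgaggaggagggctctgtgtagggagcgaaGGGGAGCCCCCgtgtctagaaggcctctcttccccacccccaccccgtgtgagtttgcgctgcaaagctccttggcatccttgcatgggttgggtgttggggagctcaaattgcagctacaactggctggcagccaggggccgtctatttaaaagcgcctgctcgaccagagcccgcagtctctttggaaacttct
IGF1R: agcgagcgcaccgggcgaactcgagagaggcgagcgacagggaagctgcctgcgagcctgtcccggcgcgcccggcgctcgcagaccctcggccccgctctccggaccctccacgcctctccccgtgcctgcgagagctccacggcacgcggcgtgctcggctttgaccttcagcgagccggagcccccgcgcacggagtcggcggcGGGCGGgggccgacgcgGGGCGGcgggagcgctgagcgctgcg
IGFBP3: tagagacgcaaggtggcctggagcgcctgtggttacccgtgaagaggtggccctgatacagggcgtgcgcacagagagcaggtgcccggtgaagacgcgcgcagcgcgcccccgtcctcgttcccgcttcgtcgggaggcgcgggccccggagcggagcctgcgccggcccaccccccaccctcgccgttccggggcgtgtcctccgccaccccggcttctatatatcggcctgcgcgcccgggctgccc
IGFBP7: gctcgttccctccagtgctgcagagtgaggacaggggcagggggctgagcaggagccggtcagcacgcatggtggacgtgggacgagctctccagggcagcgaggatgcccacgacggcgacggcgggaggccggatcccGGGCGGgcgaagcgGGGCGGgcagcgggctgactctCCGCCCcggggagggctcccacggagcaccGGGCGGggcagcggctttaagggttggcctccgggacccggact
The IGFBP5 stretch holds a pair of overlapping kappaB matches that begin 196 and 195 bases before the start. The IGF1R stretch holds 2 matches to GGGCGG and the IGFBP7 stretch 4, whereas the IGFBP3 stretch holds none of the letters searched. Of the genes not called, IGF2, IGF2R and IGFBP2 also have GGGCGG before an annotated start, while IGF1, IGFBP4 and IGFBP6 do not. Among 32851 mouse promoters of the same length, 7.25% hold the kappaB motif, 32.7% the GC box core, 33.8% the CAAT box letters, 12.4% the TATA box letters and 6.75% the AP-1 core. A match describes these letters and is no evidence that a factor binds there. The share of G and C was 58.8% for IGFBP5, 77.6% for IGF1R, 73.2% for IGFBP3 and 74% for IGFBP7.

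Among the receptors, IGF1R was at 8.54, 8.84, 8.63 and 8.74 on untreated arrays of MEKK1+/+ cells, given here and below in the order of replicates 1 to 4, and at 8.40, 7.57, 8.09 and 8.12 on those with conditioned medium. All 4 treated arrays were below all 4 untreated ones, although replicate 1 lay close to the lowest untreated array and replicate 2 was lower than the rest. The log2 difference was -0.64 (SE 0.15, 95% interval -0.95 to -0.33, limma adjusted p = 0.0184, 2-sided exact permutation p = 0.0286, the smallest that 4 arrays against 4 allow). On arrays labelled MEKK1-/-, IGF1R was at 8.70, 8.46, 8.82 and 8.46 untreated and at 8.13, 8.54, 8.29 and 8.28 with conditioned medium, and the groups overlapped through replicate 2. The difference there was -0.30 (95% interval -0.61 to 0.01, adjusted p = 0.336 from limma). The 2 responses were not shown to differ, since the interaction was 0.35 with an interval of -0.09 to 0.78 (adjusted p = 1.00 from limma). Averaged over the genotypes the fall was -0.47 (SE 0.10, adjusted p = 0.00598 from limma, exact permutation p within genotype = 0.00122). In MEKK1+/+ cells the call was lost without untreated replicate 2 (adjusted p = 0.0612) and when only these 2 groups were fitted (0.0682), both from limma.

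IGF2R, the clearance receptor for IGF2, ran from 10.01 to 10.64 on the untreated MEKK1+/+ arrays (median 10.28) and from 10.24 to 10.63 with conditioned medium (median 10.57), a difference of 0.20 (95% interval -0.32 to 0.73). In cells labelled MEKK1-/- it ran from 9.87 to 11.12 untreated and from 10.30 to 11.22 with conditioned medium, a difference of 0.22 (95% interval -0.31 to 0.74). The groups overlapped in both genotypes, and changes within these intervals could not be told from none.

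The ligands showed more spread between cultures than change with conditioned medium. IGF1 was at 8.49, 8.67, 9.66 and 9.46 on untreated MEKK1+/+ arrays and at 8.53, 8.44, 9.01 and 9.51 with conditioned medium, so that untreated cultures differed by up to 2.24-fold while the difference of the means was -0.20 (95% interval -0.94 to 0.54). The values in cells labelled MEKK1-/- were 8.25, 9.26, 8.67 and 8.71 untreated and 7.87, 9.36, 8.07 and 8.29 with conditioned medium, with a difference of -0.33 (95% interval -1.07 to 0.41). Replicate 2 was the highest array of both these groups. IGF2 was at 8.35, 9.29, 9.68 and 9.21 untreated and at 8.65, 9.60, 9.91 and 9.44 with conditioned medium in MEKK1+/+ cells, a difference of 0.27 (95% interval -0.40 to 0.93, adjusted p = 0.780 from limma). In cells labelled MEKK1-/- IGF2 was at 9.69, 10.46, 9.75 and 9.83 untreated and at 9.68, 10.73, 9.78 and 9.93 with conditioned medium, a difference of 0.10 (95% interval -0.56 to 0.76). The IGF2 difference in MEKK1+/+ cells turned to -0.13 in the values as deposited.

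IGFBP5 had the largest fall of the 10 genes in both genotypes. This secreted protein, which binds IGFs and extracellular matrix, was at 11.91, 12.96, 12.69 and 12.68 on untreated MEKK1+/+ arrays and at 10.76, 10.95, 11.41 and 11.75 with conditioned medium. The groups did not overlap, and the arrays nearest to each other were untreated replicate 1 and treated replicate 4. The difference was -1.34 (SE 0.33, 95% interval -2.05 to -0.63, adjusted p = 0.0307 from limma, exact permutation p = 0.0286). On arrays labelled MEKK1-/- it was at 10.74, 12.26, 12.34 and 12.34 untreated and at 10.13, 10.74, 10.70 and 10.67 with conditioned medium. Here replicate 1 of the untreated group lay level with replicates 2 to 4 of the treated group, and the groups stayed apart only in the third decimal. The difference was -1.36 (SE 0.33, 95% interval -2.07 to -0.65, adjusted p = 0.0299 from limma, exact permutation p = 0.0286), and the fall was seen in 4 of 4 same-numbered pairs of that genotype, where the numbers pair the arrays, by 0.61, 1.52, 1.64 and 1.67. By size of change IGFBP5 was the 9th lowest of 18132 genes in MEKK1+/+ cells and the 13th lowest in cells labelled MEKK1-/-.

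Averaged over the genotypes, IGFBP5 fell by 1.35 on the log2 scale (SE 0.24, 95% interval -1.86 to -0.85, adjusted p = 0.00131 from limma), and the exact permutation p within genotype, 0.000408, is the smallest it can give. The interaction was -0.02 with an interval of -1.03 to 0.99, so that a sizeable difference between the genotypes' responses in either direction could not be told from none. The averaged call was kept in 26 of 26 alternative settings, with adjusted p from 5.14e-05 to 0.00392 by limma. Within a genotype the call was less firm in the fit without a replicate block. In MEKK1+/+ cells it was lost without untreated replicate 2 (adjusted p = 0.0964), 3 (0.0856) or 4 (0.0585) or treated replicate 1 (0.0835) or 2 (0.0756), all from limma. In cells labelled MEKK1-/- it was lost without untreated replicate 2 (0.0742), 3 (0.0987) or 4 (0.0999) or treated replicate 1 (0.0652), 2 (0.0575), 3 (0.0616) or 4 (0.0680), in the values as deposited (0.183) and when only these 2 groups were fitted (0.0603), all from limma, and the direction held in each. With replicate number as a block within genotype, the IGFBP5 difference in cells labelled MEKK1-/- had an SE of 0.19 (adjusted p = 0.00241 from limma). That SE was estimated over both genotypes, and the MEKK1+/+ arrays did not pass the pairing check.

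The low untreated IGFBP5 value came from 1 of the arrays rich in epithelial markers. The keratin genes KRT8, KRT14 and KRT18 had group SDs from 1.52 to 2.24 (log2) on the arrays labelled MEKK1-/-, against 0.10 to 0.19 on MEKK1+/+ arrays, while KRT5 was at or below the background level on all 16. Of the 11 epithelial markers in the table, 2 passed that level on all arrays (KRT19 and CLDN7) and 3 passed it nowhere (KRT5, ELF3 and ELF5). Untreated and treated arrays labelled MEKK1-/- had small SDs for KRT19 (0.09 and 0.19) and CLDN7 (0.05 and 0.13). The SDs there were 1.63 and 1.88 for CLDN4, and from 0.58 to 0.83 for CDH1 and CLDN3. Summed endothelial markers were also highest there, at 1832 and 1909 against 1033 to 1341 on the other 14 arrays. On the 907 genes called with conditioned medium in MEKK1+/+ cells (IGF axis genes left out, each signed by its direction there), this untreated array had a mean of -0.27, beside -0.22 to -0.27 on the other untreated arrays of its genotype and 0.15 to 0.34 on the treated ones. Without both arrays numbered 1, a setting chosen after their values were seen, the IGFBP5 difference in cells labelled MEKK1-/- was -1.61 (adjusted p = 0.00324 from limma), and 1 of the 10 genes was again called in that genotype, 2 in MEKK1+/+ cells and 4 on average, where 4.24%, 6.04% and 12.8% of all genes were called. In bulk RNA, fewer cells of a type and less RNA per cell cannot be told apart.

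**Figure D3:**
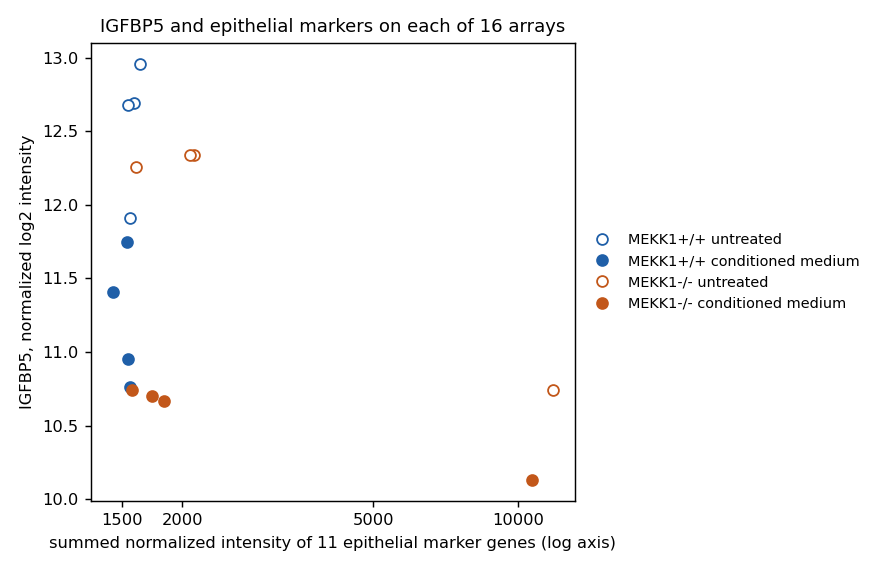
IGFBP5 (y axis, normalized log2 intensity) against the summed normalized intensity of 11 epithelial marker genes (x axis, log scale) on each of the 16 arrays; open circles are untreated and filled circles conditioned medium, blue for MEKK1+/+ and orange for arrays labelled MEKK1-/-. The 2 arrays at the right, above 10000, are the untreated and the treated arrays labelled MEKK1-/- and numbered 1, and IGFBP5 on each is the lowest of its group.

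IGFBP5 ran against the summed epithelial and endothelial markers (r = -0.45 and -0.52 over 16 arrays, -0.71 and -0.72 after group means were removed). The 2 arrays labelled MEKK1-/- and numbered 1 had the highest sums of both lists and the lowest IGFBP5 of their groups. IGFBP5 also ran with the summed fat cell markers (r = 0.83 over 16 arrays, 0.72 after group means were removed). The arrays share groups, and those of a genotype come from 3 mice. The fat cell sum of 8 genes ran from 9610 to 14392 in untreated and from 5409 to 10959 in treated MEKK1+/+ cells, and from 4300 to 14084 and from 4834 to 7424 in cells labelled MEKK1-/-. It was carried by LPL, whose mean log2 was 13.46 and 12.79 in MEKK1+/+ cells and 12.81 and 12.28 in cells labelled MEKK1-/-, untreated and treated. LPL was not called with conditioned medium in MEKK1+/+ cells, in cells labelled MEKK1-/- or on average (adjusted p = 0.339, 0.502 and 0.127 from limma). PPARG, the nuclear receptor that drives fat cell differentiation, had lower means with conditioned medium in both genotypes, as IGFBP5 had. Its mean log2 was 7.47 untreated and 7.14 with conditioned medium in MEKK1+/+ cells (adjusted p = 0.0826 from limma) and 7.65 and 7.04 in cells labelled MEKK1-/- (adjusted p = 0.00286 from limma), and it was called lower on average too (adjusted p = 0.000473 from limma). It passed the background level on all 8 untreated arrays and on 0 of the 8 treated ones, so the size of its fall was not measured. ADIPOQ, PLIN, FABP4, CIDEC and LEP were at or below the background level on all 16 arrays, and CIDEA was above it on 1.

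IGFBP3, the main carrier of IGFs in blood, was a gene near background. It was at 7.28, 7.65, 8.08 and 7.65 on untreated MEKK1+/+ arrays and at 7.03, 6.97, 7.55 and 7.15 with conditioned medium, and passed the background level on 4 and 1 of them. On arrays labelled MEKK1-/- it was at 7.18, 7.60, 7.42 and 7.34 untreated (3 of 4 above the level) and at 7.24, 7.17, 7.03 and 7.00 with conditioned medium (0 of 4). The treated and untreated groups overlapped in both genotypes. The difference was -0.49 in MEKK1+/+ cells (95% interval -0.81 to -0.17, adjusted p = 0.0823 from limma). In cells labelled MEKK1-/- it was -0.27 (95% interval -0.60 to 0.05, adjusted p = 0.419 from limma), with 4 arrays in each group. There untreated replicate 1 was itself below its level, so the size of that difference was not measured. Averaged, IGFBP3 was called lower, with a fitted log2 difference of -0.38 (SE 0.11, adjusted p = 0.0278 from limma, exact permutation p within genotype = 0.00571). Since 1 of the 8 treated arrays was above the background level, the size of that difference was not measured. The averaged call was lost without MEKK1+/+ treated replicate 1 (adjusted p = 0.0571) or 2 (0.0539), or without MEKK1-/- untreated replicate 2 (0.0564) or 3 (0.0537) or treated replicate 3 (0.0566) or 4 (0.0602), all from limma.

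IGFBP7, a matrix-associated relative of the family that binds IGFs only weakly, was the gene that rose. It was at 13.26, 13.47, 13.43 and 13.59 on untreated MEKK1+/+ arrays and at 13.66, 13.76, 13.57 and 13.73 with conditioned medium, a difference of 0.24 (95% interval 0.06 to 0.43, adjusted p = 0.128 from limma). On arrays labelled MEKK1-/- the values were 13.83, 13.57, 13.67 and 13.69 untreated and 13.73, 14.04, 13.78 and 13.98 with conditioned medium, a difference of 0.19 (adjusted p = 0.267 from limma). The groups overlapped in both genotypes, and replicate 1 labelled MEKK1-/- was the 1 same-numbered pair of that genotype without a rise. The averaged rise was 0.22 (SE 0.06, adjusted p = 0.0247 from limma, exact permutation p within genotype = 0.00408). It depended on the scaling: as deposited the averaged difference was 0.03 (adjusted p = 0.810 from limma) and that in MEKK1+/+ cells -0.09, where the median gene moved by -0.15 and -0.28. The averaged call was also lost with z-scores (adjusted p = 0.172), with trended and robust moderation (0.0549) and without MEKK1-/- treated replicate 2 (0.0542) or 4 (0.0571), all from limma.

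The remaining binding proteins did not pass the test with conditioned medium. IGFBP2 and IGFBP5 lie next to each other on chromosome 1. IGFBP2 differed by 0.05 in MEKK1+/+ cells (95% interval -0.39 to 0.49) and by -0.07 in cells labelled MEKK1-/- (95% interval -0.52 to 0.37). With its signal this close to background, a fall as large as that fitted for IGFBP5 would end below the background level. Its values ran from 7.43 to 8.27 untreated and from 7.52 to 7.98 with conditioned medium in MEKK1+/+ cells, and from 7.47 to 8.12 and from 7.34 to 8.09 in cells labelled MEKK1-/-. IGFBP4, an inhibitory binding protein, differed by -0.02 (95% interval -0.52 to 0.49) and -0.14 (95% interval -0.64 to 0.37) in the genotypes in the same order. IGFBP6, which prefers IGF2 as its ligand, differed by -0.00 (95% interval -0.32 to 0.32) and 0.13 (95% interval -0.20 to 0.45), with all 16 arrays between 11.05 and 11.81.

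Without overlap between the 4 untreated and the 4 treated arrays, 2 of the 10 genes were separated in MEKK1+/+ cells (IGF1R and IGFBP5, both lower), where 9.7% of all genes were. Among cells labelled MEKK1-/- 1 of 10 was separated (IGFBP5), where 10.4% of all genes were.

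Between the labelled genotypes 0 of the 10 genes passed the test in untreated cells, where 0% of all genes were called by limma, although 1680 genes had an unadjusted p under 0.05, among them IGF2, IGFBP4 and IGFBP7. With conditioned medium 0 of 10 passed, where 0.00552% of all genes (1 gene) were called, and IGFBP7 was the 1 member of the axis among 1466 genes with an unadjusted p under 0.05. For the interaction of genotype with conditioned medium 0 of 10 passed and 0% of all genes were called, with 473 genes and 0 of the 10 at an unadjusted p under 0.05. The largest fitted differences were in IGF2, which was higher, and IGFBP5, which was lower, on arrays labelled MEKK1-/-.

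**Figure D4:**
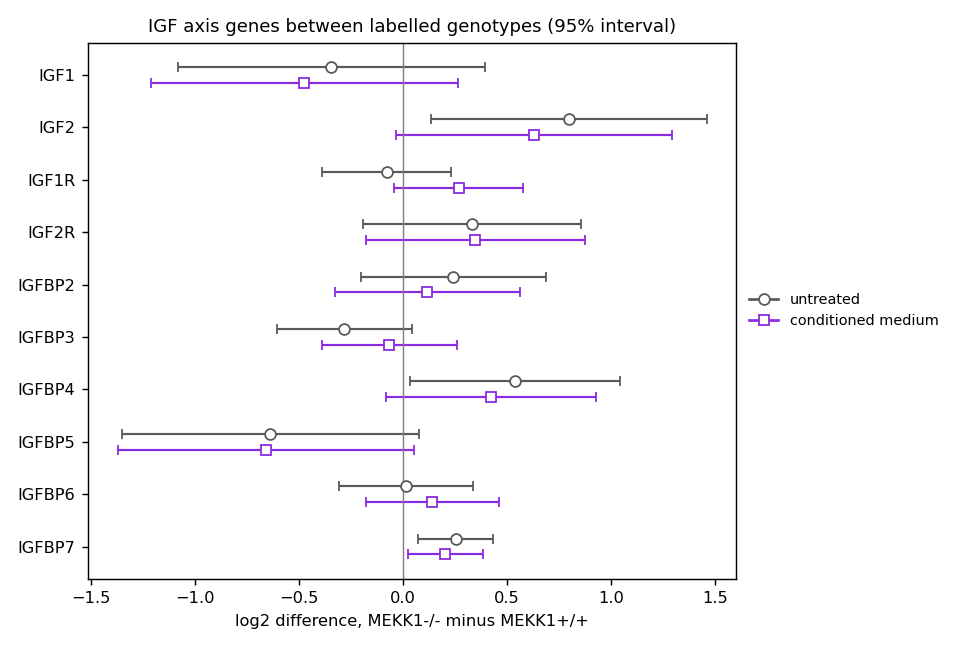
Log2 difference of arrays labelled MEKK1-/- from MEKK1+/+ arrays (x axis) for each of the 10 genes, with 95% intervals from limma over all 16 arrays; grey circles are untreated cells and purple squares are cells with conditioned medium. No adjusted p is under 0.05; the intervals of IGF2, IGFBP4 and IGFBP7 in untreated cells and of IGFBP7 with conditioned medium lie above 0.

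IGF2, an imprinted growth factor best known from fetal tissue, was 0.80 higher (log2) on untreated arrays labelled MEKK1-/- (95% interval 0.13 to 1.46, adjusted p = 0.4996 from limma, exact permutation p = 0.0286). The lowest of these arrays, at 9.69, was just above the highest untreated MEKK1+/+ array, at 9.68, and IGF2 was the 1 gene of the 10 whose untreated genotypes did not overlap, where 4.61% of all genes did not. With conditioned medium the difference was 0.63 (95% interval -0.03 to 1.29, adjusted p = 0.625, exact permutation p = 0.114), and the genotypes overlapped. IGFBP4 was 0.54 higher in untreated cells (adjusted p = 0.521 from limma, exact permutation p = 0.171) and 0.42 higher with conditioned medium (adjusted p = 0.661). Its untreated MEKK1+/+ arrays fell apart into 9.07 and 8.93 (replicates 1 and 4) and 9.92 and 10.04 (replicates 2 and 3), while those labelled MEKK1-/- lay between 9.83 and 10.15. IGFBP7 was 0.25 higher untreated (adjusted p = 0.465 from limma, exact permutation p = 0.0571) and 0.20 higher with conditioned medium (adjusted p = 0.581, exact permutation p = 0.0857). Centring every array on the same median turned the latter to -0.04.

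IGFBP5 had a difference of -0.64 on untreated arrays labelled MEKK1-/- (adjusted p = 0.570 from limma, exact permutation p = 0.286) and of -0.66 with conditioned medium (adjusted p = 0.633, exact permutation p = 0.0286). With conditioned medium all 4 arrays labelled MEKK1-/- were below all 4 MEKK1+/+ arrays, and IGFBP5 was the 1 gene of the 10 separated in this way, where 4.17% of all genes were. The gap was narrow, with 10.74 as the highest value labelled MEKK1-/- and 10.76 as the lowest MEKK1+/+ one. Without both arrays numbered 1 the untreated difference was -0.25 and that with conditioned medium -0.52. IGF1 differed by -0.35 untreated and -0.48 with conditioned medium, IGF2R by 0.33 and 0.35 and IGFBP2 by 0.24 and 0.12, each with groups that overlapped. With both arrays numbered 1 left out, these differences were -0.19 and -0.30 for IGF1, 0.59 and 0.53 for IGF2R and 0.17 and 0.12 for IGFBP2. IGF1R differed by -0.08 and 0.27, IGFBP3 by -0.28 and -0.07 and IGFBP6 by 0.01 and 0.14, and the sign for IGFBP6 turned with the scaling in both.

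Macrophage markers had lower summed levels, with ranges that overlapped, on arrays labelled MEKK1-/-. Their sum over 17 genes ran from 14467 to 44371 in untreated and from 11625 to 37813 in treated MEKK1+/+ cells, and from 6084 to 29395 and from 5783 to 26033 in cells labelled MEKK1-/-. The median marker difference was -0.74 untreated and -0.56 with conditioned medium (log2), 0 of 17 passed the adjusted test by limma, and 8 and 7 had an unadjusted p under 0.05. Over all 18132 genes, 1680 and 1466 had such a p. Of these markers 7 passed the background level on all arrays and 5 passed it nowhere, PTPRC and CD163 among the latter. IGF1 ran with this sum over the arrays (r = 0.56 over 16 arrays, 0.44 after group means were removed) and IGF2R ran against it (r = -0.65 and -0.54). After group means were removed, other sums gave larger values. IGF2R then had r = -0.75 with the epithelial and -0.62 with the endothelial sum. IGF1 then had r = -0.61 with the smooth muscle and pericyte sum, -0.58 with the endothelial, 0.54 with the fat cell and -0.48 with the epithelial sum. Markers of smooth muscle and pericytes had summed levels over 7 genes from 28243 to 32025 in untreated and from 23578 to 28605 in treated MEKK1+/+ cells, and from 25295 to 34018 and from 22368 to 28235 in cells labelled MEKK1-/-. Of these 7 markers, 4 passed the background level on all arrays and CNN1 and RGS5 passed it nowhere. ACTA2, the smooth muscle actin gene, was called lower on average (-0.21, adjusted p = 0.0490 from limma). The other 6 markers were not called on average, where 12.5% of all genes were. IGFBP2 ran with this sum (r = 0.58 over 16 arrays, 0.78 after group means were removed), IGF2 ran against it (r = -0.55 and -0.78) and IGF1R ran with it (r = 0.59 and 0.25). The part of macrophage, epithelial, fat, endothelial, smooth muscle and pericyte cells in the values of the IGF axis was not tested.

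The genes most alike to each member over the 16 arrays were searched among 6922 genes above the background level on every array, as a description without a test, over arrays that share groups and mice. IGFBP5 ran closest to ZFP521, a zinc finger regulator of mesenchymal cells (r = 0.95), and RAB31, a small GTPase of vesicle traffic (r = 0.92). IGF1R ran closest to TOMM34 (r = 0.92) and PRNPIP1 (r = 0.91), and IGF1 to SFRP1, a secreted Wnt antagonist (r = 0.92), and MGST1 (r = 0.90). IGF2 ran closest to GPC3, a glypican of the cell surface (r = 0.83), and to IGFBP4 (r = 0.82, and 0.75 after group means were removed). IGFBP4 ran closest to TGFBI (r = 0.87) and CYGB (r = 0.83), and IGFBP7 to the ribosomal protein genes RPL29 (r = 0.92) and RPS19 (r = 0.91). IGF2R ran closest to LONP2 and COPS4 (r = 0.89 and 0.88), IGFBP2 to LTBP1 and FAM132B (0.88 and 0.84) and IGFBP6 to SHKBP1 and PYGO1 (0.82 for both). Within the axis, IGF1 ran against IGFBP2 (r = -0.74) and IGFBP3 ran with IGFBP5 (r = 0.78, and 0.49 after group means were removed).

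The other genes of the pathway were read from 3 lists of 49 genes found in the table. With conditioned medium 2 of the 49 were called in MEKK1+/+ cells (1 higher, 1 lower), 3 in cells labelled MEKK1-/- (2 higher, 1 lower) and 9 on average (3 higher, 6 lower), which is 4.08%, 6.12% and 18.4% against the 5.01%, 4.69% and 12.5% of all genes. In the fit with low genes removed, 11.8%, 11.1% and 27.7% of the 8797 genes kept were called. With replicate number as a block within genotype, 7 of 49 were called in cells labelled MEKK1-/- (2 higher, 5 lower), where 7.93% of all genes were called in the same fit. The block added GRB10, PIK3R3, ADAM12 and CTCF to the lower calls there (adjusted p = 0.0118, 0.0201, 0.0173 and 0.0361 from limma). Without both MEKK1-/- arrays numbered 1, 5 were called in MEKK1+/+ cells, 5 in cells labelled MEKK1-/- and 10 on average, against 6.04%, 4.24% and 12.8% of all genes. Between genotypes and for the interaction 0 of 49 were called by limma. At an unadjusted p under 0.05 there were 4 of 28 genes of the receptor and PI3K-AKT list between untreated genotypes and 3 with conditioned medium, 1 of 11 of the growth hormone list in each, and 0 for the interaction. Over all 18132 genes there were 1680 between untreated genotypes, 1466 with conditioned medium and 473 for the interaction. The median change over the 49 was -0.01 on average (log2).

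JAK2, the kinase that carries the growth hormone signal to the IGF1 gene, had the largest rise of the 49. It was at 9.47, 9.18, 9.40 and 9.31 on untreated MEKK1+/+ arrays and at 10.19, 10.09, 10.59 and 10.73 with conditioned medium, a difference of 1.07 (adjusted p = 0.00529 from limma). On arrays labelled MEKK1-/- it was at 8.95, 8.91, 8.85 and 8.88 untreated and at 9.11, 10.02, 10.18 and 10.08 with conditioned medium, a difference of 0.95 (adjusted p = 0.0104 from limma). No treated array overlapped with an untreated one of its genotype, and the smallest rise was on the treated array numbered 1 and labelled MEKK1-/-. As deposited the differences were 0.67 and 0.87 and were not called (adjusted p = 0.101 and 0.280 from limma). STAT5A, a transcription factor downstream of JAK2, rose by 0.38 on average and 0.45 in cells labelled MEKK1-/- (adjusted p = 0.00192 and 0.0173 from limma), and the call in that genotype was lost without untreated replicate 3 or 4 or treated replicate 4 (0.0517 to 0.0550) and with only its 2 groups fitted (0.0622). CTCF, which binds the imprinting control region beside IGF2, fell by 0.46 on average (adjusted p = 0.00740 from limma), which was not called as deposited (0.0592). Of the 11 genes of the growth hormone arm and RNA-level control, 2 rose, 1 fell and 8 were not called on average.

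PIK3R1, the main regulatory subunit of phosphoinositide 3-kinase, had the largest fall. It was at 10.12, 9.70, 9.72 and 9.44 untreated and at 8.73, 8.58, 9.32 and 9.07 with conditioned medium in MEKK1+/+ cells (difference -0.82, adjusted p = 0.0298 from limma). On arrays labelled MEKK1-/- it was at 9.23, 9.71, 9.98 and 9.99 untreated and at 8.85, 8.46, 9.16 and 8.69 with conditioned medium (difference -0.94, adjusted p = 0.0151 from limma). The groups did not overlap in either genotype. In MEKK1+/+ cells the call was lost without untreated replicate 1, 2 or 3 or treated replicate 1, 2 or 4 (adjusted p from 0.0533 to 0.0900 by limma) and with only these 2 groups fitted (0.0508). For the cells labelled MEKK1-/- it was lost without untreated replicate 3 or 4 or treated replicate 2 (0.0550 to 0.0584 by limma). Both calls were lost as deposited (adjusted p = 0.0512 in MEKK1+/+ cells and 0.567 in those labelled MEKK1-/-) and with array medians made equal (0.0615 and 0.0908), all from limma. The related subunit gene PIK3R3 fell by 0.60 on average and GRB10, an adaptor that inhibits the insulin and IGF receptors, by 0.65 (adjusted p = 0.00549 and 0.00738 from limma). SHC1, an adaptor gene, rose by 0.31 on average (adjusted p = 0.0351 from limma). The averaged SHC1 call was lost without MEKK1+/+ untreated replicate 1, 2 or 3 or treated replicate 2 or 4, or without MEKK1-/- treated replicate 2 or 3 (0.0567 to 0.0747 by limma), with array medians made equal (0.382) and with z-scores (0.0658). As deposited, neither of the averaged calls of SHC1 and STAT5A was kept (0.806 and 0.242), and their differences in MEKK1+/+ cells were -0.05 and -0.01. RPS6KB1, the ribosomal S6 kinase gene, counts among the 4 called lower on average (adjusted p = 0.0425 from limma), but it lay at or below the background level on all 16 arrays, from 6.73 to 7.06, so no change in its level was measured. That call was lost as deposited (0.154), with array weights (0.0674), with replicate number as a block (0.0571 over all arrays, 0.0633 within genotype), without both MEKK1-/- arrays numbered 1 (0.121) and without most single arrays (0.0508 to 0.0822), all from limma. The receptor and PI3K-AKT list held 28 genes in the table, of which 1 was called higher, 4 lower and 23 were not called on average.

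Of 10 genes that act on IGFs or their binding proteins outside the cell, 1 was called on average. ADAM12, a metalloprotease known to cut IGFBP3 and IGFBP5, fell by 0.46 (adjusted p = 0.0343 from limma), with differences of -0.52 in MEKK1+/+ cells (adjusted p = 0.152) and -0.40 in cells labelled MEKK1-/- (adjusted p = 0.316, and 0.0173 with replicate number as a block). The averaged call was lost without MEKK1+/+ untreated replicate 3 or 4 or treated replicate 1 or 2, or without MEKK1-/- untreated replicate 1 or 3 or treated replicate 2, 3 or 4 (0.0514 to 0.0782 by limma). The other 9 were not called in any comparison, and 5 of the 10 were above the background level on no array.

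**Figure D5:**
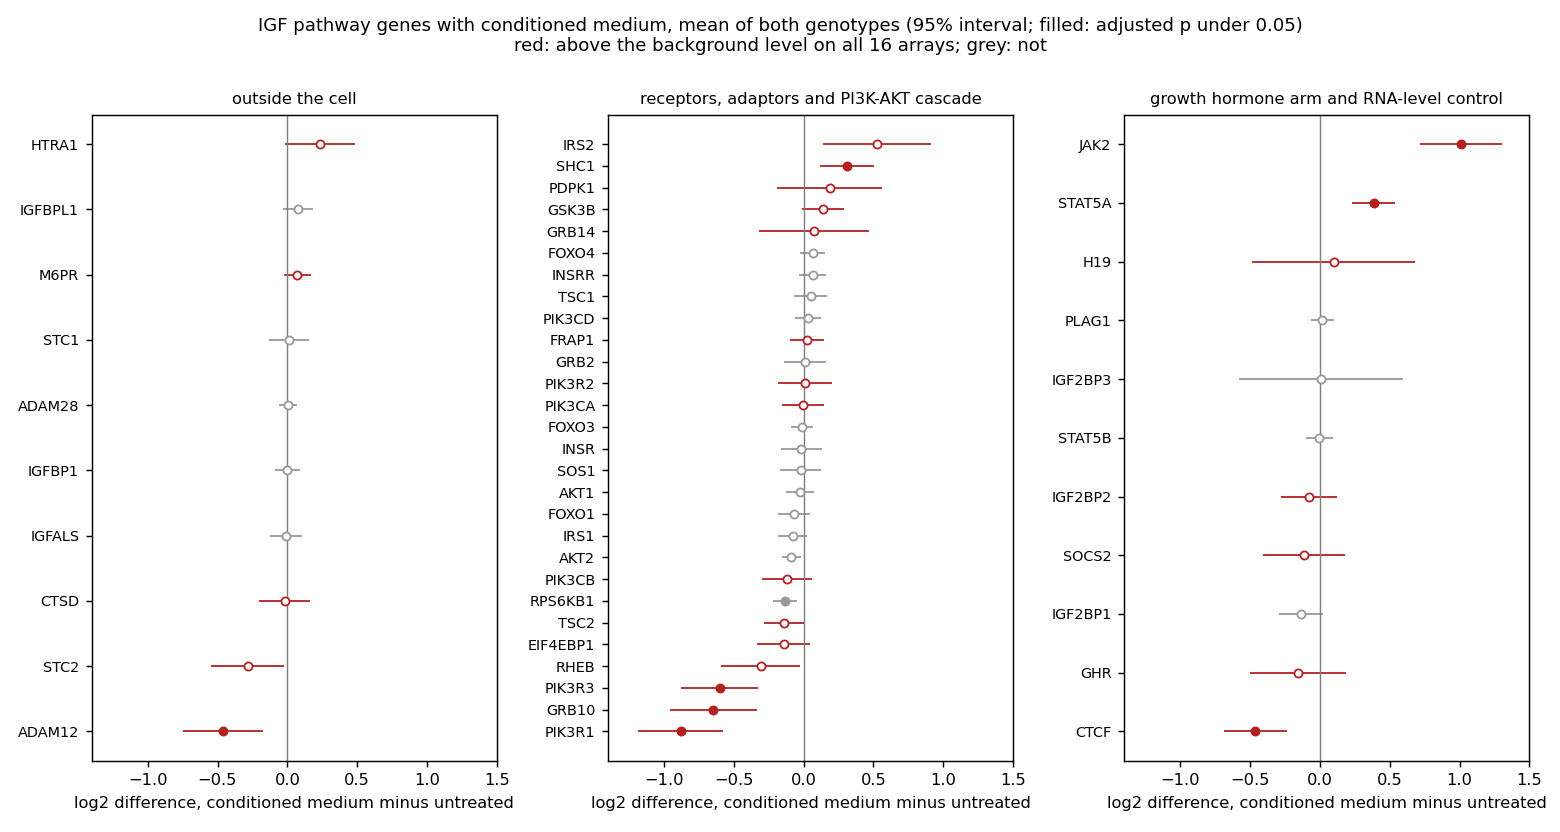
Log2 difference of conditioned medium from untreated averaged over both genotypes (x axis) for the 49 pathway genes of 3 lists, with 95% intervals from limma; filled symbols have an adjusted p under 0.05, red genes are above the background level on all 16 arrays and grey ones are not. JAK2 lies at the far right (1.01) and PIK3R1 at the far left (-0.88), with most genes near 0.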

How the data were processed

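The deposited values are linear intensity, 1 per gene symbol and array, for 18132 genes on 16 arrays, and per the labels the authors received them already normalized from a core facility. The method, background treatment and probe summary are not given in the sources used here. No array was left out, and arrays of a group correlated at 0.979 to 0.996 with 0 identical columns. Array number limits the precision.

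Log2 intensities were quantile normalized between arrays, because the deposited array medians ran from 114 to 170.1. The 4 groups were fitted together with limma 3.58.1 in R 4.3.3 (12 residual degrees of freedom), for conditioned medium against untreated in each genotype and averaged, for genotype untreated and with conditioned medium, and for the interaction. P-values were adjusted by Benjamini-Hochberg over all genes with a threshold of 0.05. Exact permutation tests were 2-sided. The study's methods name z-scores and z-tests. These were replaced as the main analysis by limma, which uses the spread between replicates, and z-scores were kept as an alternative. The limma fit alone was tested on simulated data, with independent arrays and 200 changed genes. The normalization, background level, permutation tests and pairing check were not part of that test.

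Same-numbered arrays were checked as pairs by the correlation, across genes, of their deviations from group means. Untreated and treated arrays labelled MEKK1-/- gave 0.505, 0.403, 0.219 and 0.251, all above 0.1, so the numbers pair them; the pairing comes from this check and from no label. MEKK1+/+ arrays, with -0.04 for replicate 1, did not pass. The block within genotype was fitted to both genotypes together, so its SEs and p-values also rest on the MEKK1+/+ pairs.

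The members and gene lists were chosen with earlier results of these data known. Named were all members, up to 6 called genes per pathway list and comparison, the 2 genes most correlated with each member above background, MAP3K1 and defining markers. RefSeq held 14305 of the gene names as current symbols and 2978 as older ones, and 849 were unmatched. Alternatives were the deposited values, equal array medians, z-scores, a filter on low genes, a pseudocount of 16, only the groups compared, trended and robust moderation, array weights, replicate blocks, each array left out, and both MEKK1-/- arrays numbered 1 left out, the last chosen after seeing the data. PAPPA, PAPPA2 and IRS4 of the pathway lists were not analysed here, and 1 further gene of these lists is not reported here.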

Additional observations from a re-analysis of the deposited data

Results flagged for a closer look

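In 3 of 40 groups of 4 arrays, 1 array lay far from the other 3, where chance alone flags about 1 in 20 groups. IGFBP5 was at 10.74 (log2) on the untreated array labelled MEKK1-/- and numbered 1, where the nearest other array of the group was at 12.26. On the treated array of the same number IGFBP5 was at 10.13, with 10.67 as the nearest. IGFBP2 was at 8.27 on the untreated MEKK1+/+ array numbered 1, with 7.50 as the nearest. Both IGFBP5 values belong to the 2 arrays with the highest summed epithelial markers, and the part of those cells in them was not tested.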

How the results depend on the processing

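For IGF members called with conditioned medium, the count in MEKK1+/+ cells was 1 with only the groups compared and 4 with the replicate block within genotype. The block added IGF2 (0.27, adjusted p = 0.0257 by limma) and IGFBP3 (adjusted p = 0.0108 by limma). MEKK1+/+ arrays did not pass the pairing check, so their calls with this block, here and below, rest on pairs not borne out. In cells labelled MEKK1-/- the count was 0 as deposited and 0 with only the groups compared. Leaving out 1 array gave 0 to 3 in MEKK1+/+ cells (0 without untreated replicate 2), 0 to 1 in cells labelled MEKK1-/- and 2 to 4 on average (2 without MEKK1-/- treated replicate 4). Pathway genes called in MEKK1+/+ cells numbered 1 with equal medians, 5 with low genes removed, 5 with array weights, 7 with the replicate block within genotype (ADAM12 among them, adjusted p = 0.00520 by limma) and 5 without both MEKK1-/- arrays numbered 1; in cells labelled MEKK1-/- they numbered 0 as deposited, 6 with array weights, 7 with the replicate block and 5 without both arrays numbered 1, and on average 5 as deposited. Leaving out 1 array gave 1 to 4 in MEKK1+/+ cells and 1 to 5 in cells labelled MEKK1-/-. Over all genes, MEKK1+/+ cells had 591 calls (3.26%) with only the groups compared, 881 (4.86%) with equal medians and 1253 (6.91%) with array weights. They had 1481 (8.17%) with the replicate block and 1038 of 8797 (11.8%) with low genes removed, beside 909 (5.01%) in the main fit. Cells labelled MEKK1-/- had 45 (0.248%) as deposited, 463 (2.55%) with equal medians and 844 (4.65%) with only the groups compared. They had 1355 (7.47%) with array weights and 1438 (7.93%) with the block, beside 851 (4.69%) in the main fit. The average had 1000 (5.52%) as deposited, beside 2262 (12.5%). With 1 array left out, 2.79% to 5.55% of all genes were called in MEKK1+/+ cells, 2.63% to 5.66% in cells labelled MEKK1-/- and 10.6% to 13.2% on average. Members called between genotypes and for the interaction numbered 0 under all alternatives run.

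These log2 differences changed sign, and the cause was not tested. As deposited, conditioned medium in MEKK1+/+ cells gave IGF2 -0.13, IGF2R -0.21, IGFBP2 -0.30, IGFBP7 -0.0912, SHC1 -0.0506 and STAT5A -0.0133; genotype gave IGFBP3 0.21 with conditioned medium and IGFBP6 -0.27 untreated; the interaction gave IGFBP5 0.34 and IGFBP7 0.23. With equal medians, IGFBP2 in MEKK1+/+ cells was -0.0096, the IGFBP5 interaction 0.052, and genotype gave IGFBP6 -0.29 untreated and -0.11 with conditioned medium and IGFBP7 -0.0404 with conditioned medium. Array weights gave IGFBP2 0.0014 in cells labelled MEKK1-/- and IGFBP6 -0.0297 between untreated genotypes. Without both arrays numbered 1 the latter was -0.0243 and the IGFBP7 interaction 0.044. With 1 array left out, conditioned medium gave IGF2 -0.13 to 0.27, IGF2R -0.0381 to 0.40 and IGFBP2 -0.22 to 0.091 in cells labelled MEKK1-/-, and IGFBP2 -0.0349 to 0.25, IGFBP4 -0.21 to 0.17 and IGFBP6 -0.12 to 0.0757 in MEKK1+/+ cells; genotype gave IGFBP3 -0.14 to 0.0569 with conditioned medium and IGFBP6 -0.10 to 0.0896 untreated; the interaction gave IGFBP5 -0.41 to 0.20 and IGFBP7 -0.10 to 0.007. The replicate block within genotype could not be fitted for differences between genotypes, and only the groups compared gave no separate fit for the average and the interaction. In cells labelled MEKK1-/- the replicate block changed no call of a member. Signal near background limits IGFBP3 and IGFBP2.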
